A study of Homo sapiens
Mus musculus with 17 samples.

Results

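Interferon-stimulated genes are the genes that cells switch on when interferons signal to them. Here a list of 39 such genes was followed in the human reads of bladder cancer xenografts. A gene was used where its mean over the 17 libraries reached 10 normalized counts, and 39 of 39 genes did, among 23368 genes in the human table and 14533 that reached the same mean. A normalized count is a read count divided by a size factor of its library. The xenografts derive from the human bladder cancer line VM-CUB-1, implanted in Hsd:Athymic Nude-Foxn1nu mice, which lack a thymus and so most T cells. The study asks how nintedanib and alpelisib act together on xenografts that resist nintedanib. For 7 days, 4 tumours were treated with vehicle (0.5% methylcellulose and 0.1% Tween80), 4 with alpelisib at 25 mg/kg, 5 with nintedanib at 40 mg/kg and 4 with both drugs at these doses. Alpelisib inhibits the alpha isoform of phosphoinositide 3-kinase, and nintedanib blocks the VEGF, FGF and PDGF receptor kinases. The sample titles call 3 of the nintedanib tumours responders and 2 non-responders, while the series text gives these numbers the other way round. All tumours come from a single cell line, and nothing in the labels tells if each tumour had a mouse of its own, so the p-values reflect only the spread among these samples.

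Type I and type III interferons bind receptors that activate the kinases JAK1 and TYK2. Signalling then assembles the factor ISGF3, which holds STAT2 and IRF9 and switches on genes with an interferon-stimulated response element. Interferon gamma has a receptor of its own and reaches an overlapping gene set, of which IRF1 is part. The products fall into functional classes: membrane proteins that stop virus entry or release, the ubiquitin-like protein ISG15 and its conjugating enzymes, RNA sensors, RNA-binding IFIT proteins, OAS enzymes, MX GTPases and others. In epithelial tumours many of these genes are expressed without any virus, to a degree that differs from tumour to tumour.

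Human reads per library ranged from 7429753 to 25654879, with a median of 20312801. One library stood apart: vehicle 3 had the fewest human reads, and 72.92% of its mouse reads fell on Rn45s and Lars2, which collect ribosomal RNA reads. That share was 60.06% in combination 4, 44.10% in alpelisib 3, 42.11% in combination 1 and 1.73% to 28.08% in the rest. The ribosomal protein genes of vehicle 3 were also low. Their level, the mean log2 value of 78 genes relative to the mean of the 17 libraries, was -1.61 in vehicle 3 and between -0.49 and 0.65 in the other 16 libraries. For the changes against vehicle in the 39 genes, the value without vehicle 3 is given where it turned the sign or moved the change by over 1.5 times. The human reads carried the epithelial identity of the label: 14 of 15 markers of tumour epithelium, among them EPCAM and KRT5, averaged at least 10 normalized counts, UPK3A being the exception. Of the markers of blood cells, 6 of 8 myeloid and 2 of 9 lymphoid ones averaged at least 10 normalized counts. Among those below were PTPRC, CD163 and CD3E, with means of 3.93, 1.37 and 1.59. Of 5 markers of the plasmacytoid dendritic cells that make interferon, 2 averaged at least 10, TCF4 and SPIB, and IL3RA was listed at 0 in every library. The sum of these 5 was 93.3 to 227 over the 17 libraries. The human cells of these xenografts come from the implanted line, so counts of blood cell markers here do not measure human blood cells. Whether these counts hold mouse reads was not tested. In bulk tumour RNA, fewer cells of a type and less RNA per cell cannot be told apart.

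Of the 39 genes, 3 rose with the combination and none passed the test with either drug alone. Changes are log2 fold changes ± standard error from limma on log2(normalized count + 1). The threshold was an adjusted p (Benjamini-Hochberg) of 0.05 over all tested human genes. Against vehicle, 3 of 39 genes passed with the combination, IFITM1, IFITM2 and IFITM3, all higher, where 0.317% of all tested genes were called higher and 0.358% in either direction. None of the 39 was called lower, against 0.0413% of all tested genes. The median change of the 39 genes was 0.22 with the combination, 0.11 with alpelisib and 0.09 with nintedanib, against -0.03, 0.02 and -0.0017 over all tested genes. Positive changes numbered 29 with the combination, 22 with alpelisib and 25 with nintedanib. These are 74.4%, 56.4% and 64.1% of the 39 genes, where 47.2%, 52.0% and 49.8% of all tested genes were positive. With the IFITM genes left out, the median of the remaining 36 genes was 0.18, 0.10 and 0.08. These 3 comparisons share the 4 vehicle libraries, so their values are not independent of each other.

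With alpelisib 0 of 39 genes passed, as did 0% of all tested genes, and the smallest adjusted p among the 39 was 0.209. At an unadjusted p under 0.05, 9 of the 39 were higher and 0 lower, where 11.5% of all tested genes were higher and 7.17% lower. With nintedanib 0 of 39 passed, again 0% of all tested genes, and at an unadjusted p under 0.05 there were 6 higher and 0 lower, against 5.11% higher and 2.01% lower over all tested genes. For the combination the unadjusted counts were 10 higher and 0 lower, against 11.2% higher and 6.89% lower over all. Without vehicle 3 these counts were 5 higher with alpelisib, 4 with nintedanib and 11 with the combination, and 0 lower in each, where 6.92%, 3.25% and 8.68% of all tested genes were higher. On the recovered reads, edgeR and voom called 0 of the 39 genes with either single drug. DESeq2 called 3 with alpelisib (ISG15, IFITM1 and IFITM3) and 1 with nintedanib (IFITM3), and gave an adjusted p to only 11 of the 39 in each of these comparisons. Of the 1008 genes to which it gave an adjusted p there, it called 17.2% and 1.29%.

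**Figure D1:**
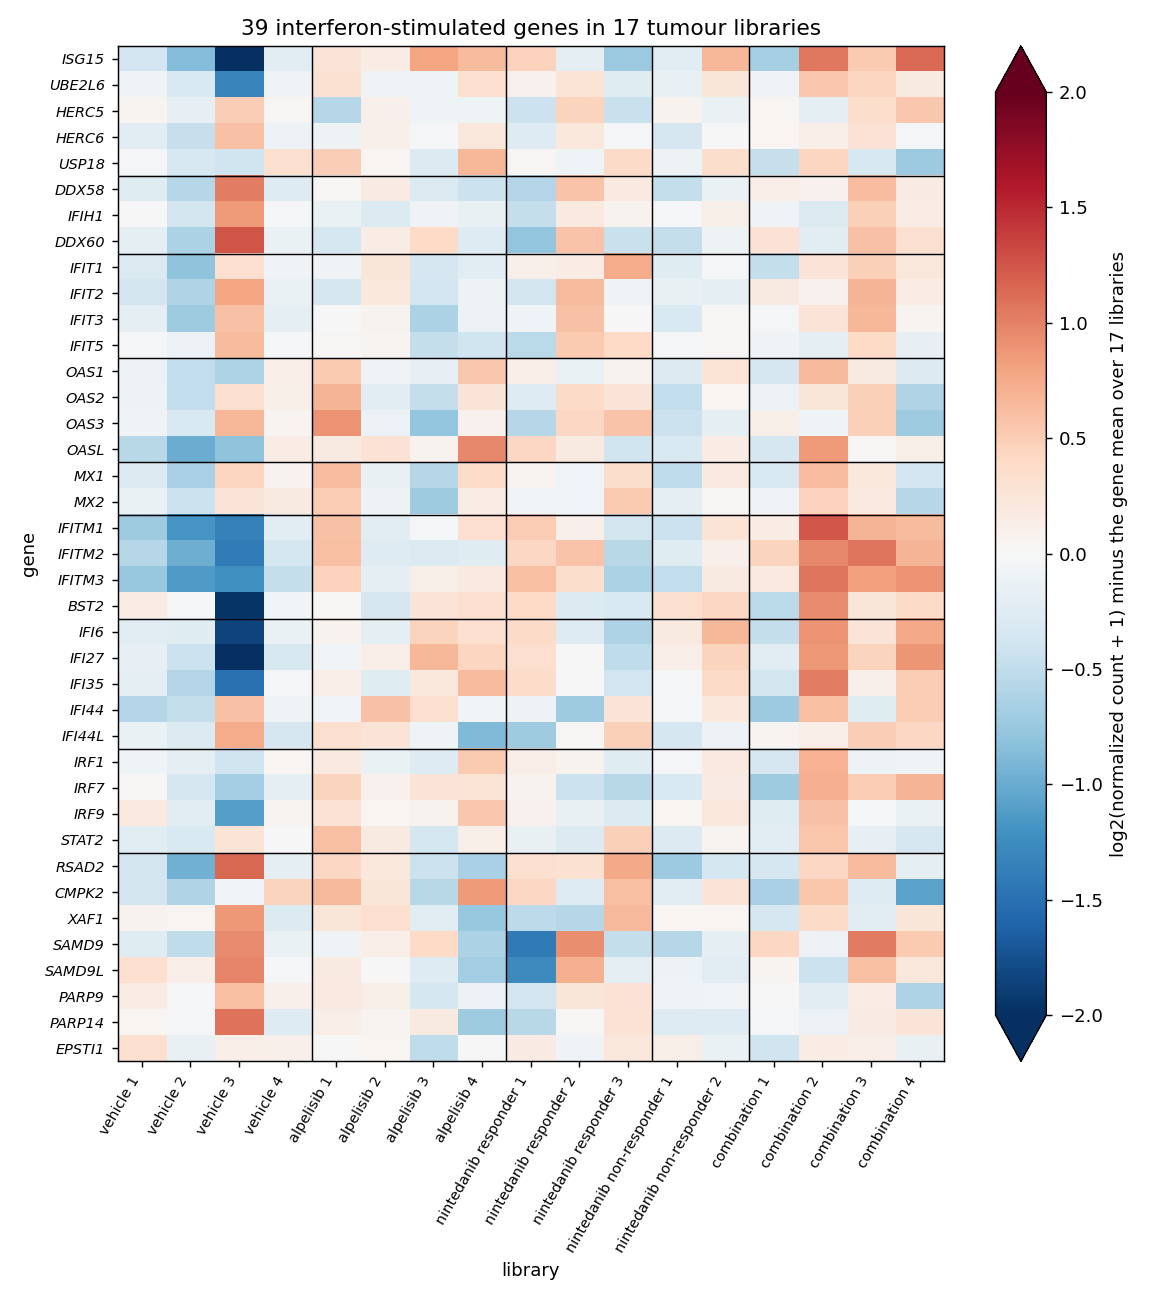
Each cell shows log2(normalized count + 1) of a gene (row, grouped by role) in a library (column, grouped by treatment) minus that gene's mean over the 17 libraries. The column of vehicle 3 holds the highest value of 12 genes and the lowest of 12 others, and combination 2 holds the highest value of 12 genes. Such extremes were not counted over all tested genes.

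The membrane restriction class holds the genes that passed. IFITM1, IFITM2 and IFITM3 encode small transmembrane proteins that hinder the fusion of virus and cell membranes. Normalized counts of IFITM3 were 6001, 4651, 4331 and 7323 in vehicle tumours, 13924, 8864, 11033 and 11609.6 with alpelisib, 15406, 13002, 6552, 7248 and 11554 with nintedanib and 11685, 21447, 18038 and 18959 with the combination. All 4 combination tumours lay above all 4 vehicle tumours, while alpelisib and nintedanib tumours covered the range between and overlapped the combination. The mean was 5576 ± 1371 in vehicle (SD, n = 4) and 17532 ± 4156 in combination tumours (n = 4), a rise of 1.65 ± 0.28 on the log2 scale (95% interval 1.05 to 2.24, limma adjusted p = 0.0271) or 3.14-fold.

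IFITM1 stood at 3058, 2201, 1966 and 4271 in vehicle tumours, 7469, 4332, 4863 and 6327 with alpelisib, 7086, 5391, 3873, 3696 and 6008 with nintedanib and 5551, 11832, 8030.2 and 7754 with the combination. The lowest combination tumour, combination 1 at 5551, was above the highest vehicle tumour, vehicle 4 at 4271. The mean went from 2874 ± 1043 to 8292 ± 2608, a rise of 1.54 ± 0.29 (interval 0.93 to 2.16, limma adjusted p = 0.0361). IFITM2 had 605, 457, 341 and 706 in vehicle tumours, 1363, 754, 737 and 757 with alpelisib, 1203, 1329, 613, 761 and 969 with nintedanib and 1227, 1754, 1882 and 1439 with the combination. Again no combination tumour overlapped a vehicle tumour, and the mean went from 527 ± 161 to 1576 ± 298, a rise of 1.61 ± 0.28 (interval 1.02 to 2.20, limma adjusted p = 0.0271). Groups did not overlap upward in 3 of the 39 genes, the IFITM genes, and in 5.27% of all tested genes.

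**Figure D2:**
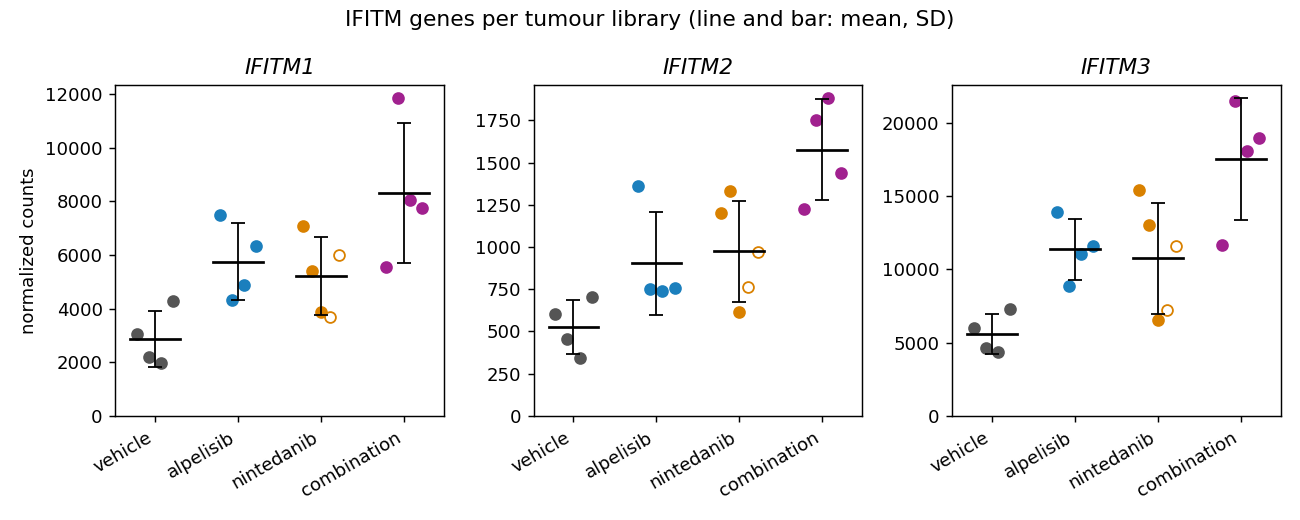
Normalized counts (linear axis from 0) of IFITM1, IFITM2 and IFITM3 in each library by treatment, with open points for nintedanib non-responders, and lines and bars for the mean and SD. All 4 combination points lie above all 4 vehicle points for each gene, and the means of the single-drug groups lie between those of these groups.

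The 3 genes are close copies of each other, and in RefSeq (assembly GRCh38.p14) IFITM2, IFITM1 and IFITM3 follow one another with no other coding gene between them. Reads shared between near-identical copies can be split by the mapper, so their separate values are uncertain. Their sum does not depend on that split among the 3: it was 9663, 7309, 6638 and 12299.9 in vehicle tumours and 18462, 35033, 27951 and 28153 in combination tumours. Mean sums were 8977 ± 2567 for vehicle, 18008 ± 3713 for alpelisib, 16938 ± 5435 for nintedanib (n = 5) and 27399.8 ± 6807 for the combination. Log2 values of the 3 genes moved together over the 17 libraries, with Pearson r from 0.93 to 0.97, a description of libraries that share depth and mapping. Host reads that match the human genome may be part of these counts, and that share was not tested.

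With alpelisib the changes were 1.04 ± 0.28 for IFITM3, 1.03 ± 0.29 for IFITM1 (limma adjusted p = 0.209 for both) and 0.78 ± 0.28 for IFITM2 (adjusted p = 0.22). With nintedanib they were 0.90 ± 0.27, 0.88 ± 0.28 and 0.88 ± 0.27 (adjusted p = 0.619 for each). Every alpelisib tumour lay above every vehicle tumour for the 3 genes, and nintedanib tumours overlapped vehicle. The size of the combination change held across libraries better than the call did. With each of the 8 vehicle and combination libraries left out in turn, the 3 changes stayed between 1.36 and 1.83. Leaving out an alpelisib or nintedanib library cannot move these changes, since each group has its own mean. Yet leaving out 1 of the 8 compared libraries ended all 3 calls in 6 of 8 cases. In each of these 6 fits 0 of all tested human genes passed. Limma adjusted p values of the 3 genes were 0.0582 to 0.0606 without vehicle 1 and 0.127 to 0.133 without vehicle 2. They were 0.0533 to 0.064 without vehicle 3 and 0.098 to 0.125 without combination 2. Without combination 3 they were 0.113, and without combination 4 they were 0.115 to 0.118. IFITM1 alone no longer passed without alpelisib 3 (0.0527) or alpelisib 4 (0.0534), which enter the shared estimate of spread.

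Other measures of the libraries moved with the IFITM genes. The ribosomal protein level was -1.61 to -0.30 in vehicle and 0.14 to 0.49 in combination tumours, and its Pearson r with the IFITM genes was 0.65 to 0.73 over 17 libraries and 0.46 to 0.66 without vehicle 3. Summed counts of the 15 epithelial markers were 301146 to 549293 in vehicle and 690306 to 1249233 in combination tumours. Of 8 myeloid markers in the human reads, 6 averaged at least 10, and their sum was 497 to 878 in vehicle and 1033 to 1516 in combination tumours. Of 9 lymphoid markers, 2 did, with sums of 64.2 to 83.3 and 83.1 to 93.3. Sums of the fibroblast, endothelial and plasmacytoid dendritic lists, with 4 of 6, 2 of 5 and 2 of 5 markers at a mean of at least 10, overlapped between vehicle and combination. The part of these measures in the IFITM result was not tested. Without vehicle 3 the IFITM changes were 1.54 for IFITM3, 1.42 for IFITM2 and 1.38 for IFITM1.

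BST2, or tetherin, holds budding viruses at the cell surface and belongs to the same class. Its counts were 4179, 3728, 969 and 3651 in vehicle tumours, 3852, 2997, 4533 and 4772 with alpelisib, 4974, 3124, 3073, 4703 and 5057 with nintedanib and 2604, 7316, 4492 and 4924 with the combination. Vehicle 3 was the lowest library by far, and the remaining vehicle tumours overlapped every treated group. Its change with the combination was 0.73 ± 0.39 (limma adjusted p = 0.323), and 0.24 without vehicle 3.

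ISG15 is a ubiquitin-like protein that is attached to other proteins by UBE2L6 and HERC5, and USP18 removes it and also dampens the interferon receptor. Counts of ISG15 were 4911, 3504, 1209.7 and 5503 in vehicle tumours, 7609, 7056, 11098 and 9949 with alpelisib, 8827, 5666, 3805, 5549 and 10090.2 with nintedanib and 4033, 13295, 9175 and 13956 with the combination. All alpelisib tumours lay above all vehicle tumours, whereas combination 1 fell within the vehicle range. Means were 3782 ± 1909 in vehicle, 8928 ± 1915 with alpelisib, 6787 ± 2586 with nintedanib and 10115 ± 4573 with the combination. The change was 1.48 ± 0.44 with the combination (limma adjusted p = 0.124), 1.42 ± 0.44 with alpelisib (0.21) and 0.97 ± 0.42 with nintedanib (0.619). Its spread between libraries was wide, as the standard errors show, and without vehicle 3 the changes were 1.0, 0.94 and 0.49. DESeq2 called ISG15 with the combination as well (adjusted p = 0.0264), 1 of 4 calls among the 39 genes, where it called 3.41% of 14528 genes.

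The other genes of ISG15 conjugation did not share the size of that change. UBE2L6, the conjugating enzyme, had a change of 0.72 ± 0.26 with the combination (limma adjusted p = 0.168), with 4981, 4322, 2118 and 5062 in vehicle and 5038, 7696, 7181 and 6034 in combination tumours. Its groups overlapped, and without vehicle 3 the change was 0.42. For the ligase HERC5 and its relative HERC6 the combination changes were 0.08 ± 0.23 and 0.16 ± 0.20, and 0.21 and 0.37 without vehicle 3. USP18, the enzyme that removes ISG15, had -0.16 ± 0.26 with the combination (-0.26 without vehicle 3) and 0.34 ± 0.26 with alpelisib. Its counts were 612, 503, 477 and 786 in vehicle tumours, 885, 646, 519 and 992 with alpelisib, 635, 588, 814, 587 and 803 with nintedanib and 455, 846, 503 and 380.4 with the combination. The lowest value of USP18, 380.4 in combination 4, came from the library with the highest ISG15.

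The IFI genes had the second highest class median after the membrane restriction genes, 0.89 with the combination, 0.76 with alpelisib and 0.64 with nintedanib, and none of the 5 passed. Those medians were 0.56, 0.45 and 0.31 without vehicle 3, where the RNA sensors had 0.57 with the combination and the IFIT family 0.37 with nintedanib. IFI27 and IFI6 encode small hydrophobic proteins of mitochondria and other organelles. IFI27 had 25248, 20908, 4506 and 22535 in vehicle tumours, 27052, 30992, 44463 and 37832 with alpelisib, 35545, 28347, 19701, 31038 and 38291 with nintedanib and 24316, 51589, 38156 and 51700.5 with the combination. Vehicle 3 stood at less than every other library, and all alpelisib tumours lay above the 4 vehicle tumours. The change was 1.38 ± 0.43 with the combination (limma adjusted p = 0.134), 1.18 ± 0.43 with alpelisib (0.221) and 0.97 ± 0.41 with nintedanib (0.619). Without vehicle 3 these were 0.80, 0.59 and 0.39.

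IFI6 had 7839, 7664, 2532 and 8324 in vehicle tumours, 9548, 8090.0, 12389 and 11541 with alpelisib, 11886, 7599.8, 5912, 10326 and 14396 with nintedanib and 6516, 17042, 10876 and 15404 with the combination. Its combination change was 0.97 ± 0.37 (limma adjusted p = 0.182), and 0.56 without vehicle 3. IFI35, which forms a complex with the protein NMI, had a change of 0.89 ± 0.32 (adjusted p = 0.17), and 0.58 without vehicle 3. The neighbouring genes IFI44 and IFI44L had combination changes of 0.17 ± 0.31 and 0.27 ± 0.30, and of 0.42 and 0.52 without vehicle 3. IFI44L reached its highest value in vehicle 3, at 2090.3 against 1143, 1019 and 989 in the other vehicle tumours.

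The 4 transcription factors had small positive changes with each treatment and none passed. Without vehicle 3 the nintedanib changes of IRF7 and IRF9 turned their sign, from 0.09 to -0.04 and from 0.26 to -0.02. STAT2 and IRF9 are parts of ISGF3, IRF7 amplifies interferon production, and IRF1 is induced most strongly by interferon gamma. Counts of IRF7 were 575, 448, 355 and 494 in vehicle tumours, 775, 605, 679 and 683 with alpelisib, 594, 423, 387, 460.0 and 635 with nintedanib and 346, 929, 809 and 911 with the combination. Each alpelisib tumour was above each vehicle tumour, and with the combination 3 tumours were high while combination 1 was the lowest library of all. The change was 0.60 ± 0.27 with the combination (limma adjusted p = 0.255) and 0.57 ± 0.27 with alpelisib (0.27).

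STAT2 had 1703, 1600.1, 2377 and 1985 in vehicle tumours, 3008, 2241, 1556 and 2145 with alpelisib, 1783, 1643, 2757, 1631 and 2043 with nintedanib and 1696, 2916, 1764 and 1569 with the combination. Its groups overlapped throughout, and the combination change was 0.02 ± 0.24, or 0.13 without vehicle 3. IRF9 had an estimate of 0.32 ± 0.25 and IRF1 of 0.19 ± 0.22 with the combination, neither passing (adjusted p = 0.517 and 0.666). With alpelisib the estimates were 0.50 ± 0.25 and 0.24 ± 0.22. Without vehicle 3 the combination estimates were 0.04 for IRF9 and 0.11 for IRF1, and the alpelisib estimates were 0.23 and 0.16. Across the 39 genes, 6 had all alpelisib tumours above all vehicle tumours (ISG15, the 3 IFITM genes, IFI27 and IRF7), where 5.89% of all tested genes did, and 0 had them all below, where 5.95% did. With nintedanib 0 lay all above, against 0.819%, and 0 all below, against 0.509%.

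The RNA sensors had no change past the test. DDX58, which encodes RIG-I, and IFIH1, which encodes MDA5, detect viral RNA in the cytoplasm, and DDX60 is a helicase linked to them. DDX60 had 3486, 2598, 9625 and 3655 in vehicle tumours, 3158, 4460.2, 5300.2 and 3358 with alpelisib, 2306, 5927, 2955, 2866 and 3751 with nintedanib and 4871, 3470.3, 5998 and 5029 with the combination. The highest value was that of vehicle 3, at 9625, and the other 3 vehicle tumours lay within the treated groups. The combination changes were 0.17 ± 0.35 for DDX60, 0.26 ± 0.30 for DDX58 and -0.06 ± 0.24 for IFIH1. Without vehicle 3 these were 0.57, 0.61 and 0.19, so that IFIH1 turned its sign.

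IFIT proteins bind foreign RNA ends and block its translation. IFIT3 had 1904, 1331, 3276 and 1939 in vehicle tumours, 2191, 2295, 1405 and 2021 with alpelisib, 2066, 3299.7, 2201, 1766 and 2224 with nintedanib and 2160.4, 2601, 3466 and 2271 with the combination. Vehicle 3, nintedanib responder 2 and combination 3 carried the high values, and every group overlapped every other. Combination changes in the family were 0.36 ± 0.26 for IFIT3, 0.35 ± 0.27 for IFIT2, 0.33 ± 0.25 for IFIT1 and -0.12 ± 0.24 for IFIT5. None passed, with adjusted p from 0.459 to 0.811. Without vehicle 3 these were 0.60, 0.64, 0.51 and 0.05.

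OAS enzymes make oligoadenylates that activate RNase L, while OASL is a relative without that activity. OASL had 1314, 963, 1101 and 2126 in vehicle tumours, 2186, 2351, 2024 and 3748 with alpelisib, 2552, 2169.9, 1464, 1555 and 2127 with nintedanib and 1525, 3451, 1961 and 2073 with the combination. The change was 0.93 ± 0.29 with alpelisib (limma adjusted p = 0.21) and 0.71 ± 0.29 with the combination (0.207). Only vehicle 4 among vehicle tumours reached into the alpelisib range. OAS3 had 3328, 2828, 5525 and 3645 in vehicle tumours, 6545, 3228, 2046 and 3699.6 with alpelisib, 2357, 4679, 5177, 2594 and 3086 with nintedanib and 3815, 3306, 4860.3 and 2132 with the combination. Its high values were spread over vehicle 3, alpelisib 1, nintedanib responder 3 and combination 3, and the changes were -0.06 ± 0.34, -0.12 ± 0.32 and -0.13 ± 0.34 with alpelisib, nintedanib and the combination. OAS1 and OAS2 had combination changes of 0.32 ± 0.25 and 0.03 ± 0.28. Without vehicle 3 the changes of OAS3 were 0.13, 0.07 and 0.06, and the combination changes of OAS1 and OAS2 0.21 and 0.15.

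MX1 and MX2 encode GTPases that trap viral nucleocapsids. MX1 had 2996, 2338, 4927 and 3879.9 in vehicle tumours, 5644, 3301, 2478 and 4747 with alpelisib, 3828, 3543, 4703, 2592 and 4194 with nintedanib and 2992, 5653, 4241 and 2813 with the combination. The range within alpelisib tumours nearly covered that of all libraries, and the combination changes were 0.15 ± 0.29 for MX1 and 0.04 ± 0.26 for MX2, or 0.33 and 0.13 without vehicle 3.

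The remaining 8 effectors had a class median of -0.23 with alpelisib, -0.22 with nintedanib and -0.17 with the combination, and none passed. Those medians were -0.03, -0.04 and 0.01 without vehicle 3. RSAD2, or viperin, makes a chain-terminating nucleotide, and its neighbour CMPK2 is a mitochondrial nucleotide kinase. RSAD2 had 504, 331, 1438 and 573 in vehicle tumours, 864, 748, 479 and 411 with alpelisib, 807, 805, 1103, 391 and 510.0 with nintedanib and 511, 864, 1005 and 569 with the combination. Vehicle 3 was again the highest library, and the combination change was 0.22 ± 0.36, and 0.63 without that library. CMPK2 had 483, 414, 602 and 853 in vehicle tumours, 977, 737, 423 and 1134 with alpelisib, 835, 520.1, 945, 541 and 750.2 with nintedanib and 399.5, 918, 523 and 298 with the combination. Its lowest value was in combination 4 and its highest in alpelisib 4, and the changes were 0.44 ± 0.35 with alpelisib and -0.21 ± 0.35 with the combination.

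SAMD9 and SAMD9L are neighbouring genes whose products restrict poxviruses and growth. SAMD9 had 1505, 1245, 3430.4 and 1624 in vehicle tumours, 1692, 1949.8, 2347 and 1150.2 with alpelisib, 664, 3381, 1274, 1195 and 1551 with nintedanib and 2365, 1638, 3653 and 2566 with the combination. High values were found in vehicle 3, nintedanib responder 2 and combination 3, while nintedanib responder 1 had the lowest count of both SAMD9 and SAMD9L. Combination changes were 0.45 ± 0.41 and -0.24 ± 0.34, and 0.76 and -0.04 without vehicle 3. PARP9 and PARP14, members of the ADP-ribosyltransferase family, had -0.38 ± 0.21 and -0.15 ± 0.27. Those of XAF1, an antagonist of the apoptosis inhibitor XIAP, and of EPSTI1 were -0.16 ± 0.31 and -0.17 ± 0.19. Without vehicle 3, PARP9 had -0.25, and PARP14 and XAF1 turned their sign, with 0.14 and 0.07.

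**Figure D3:**
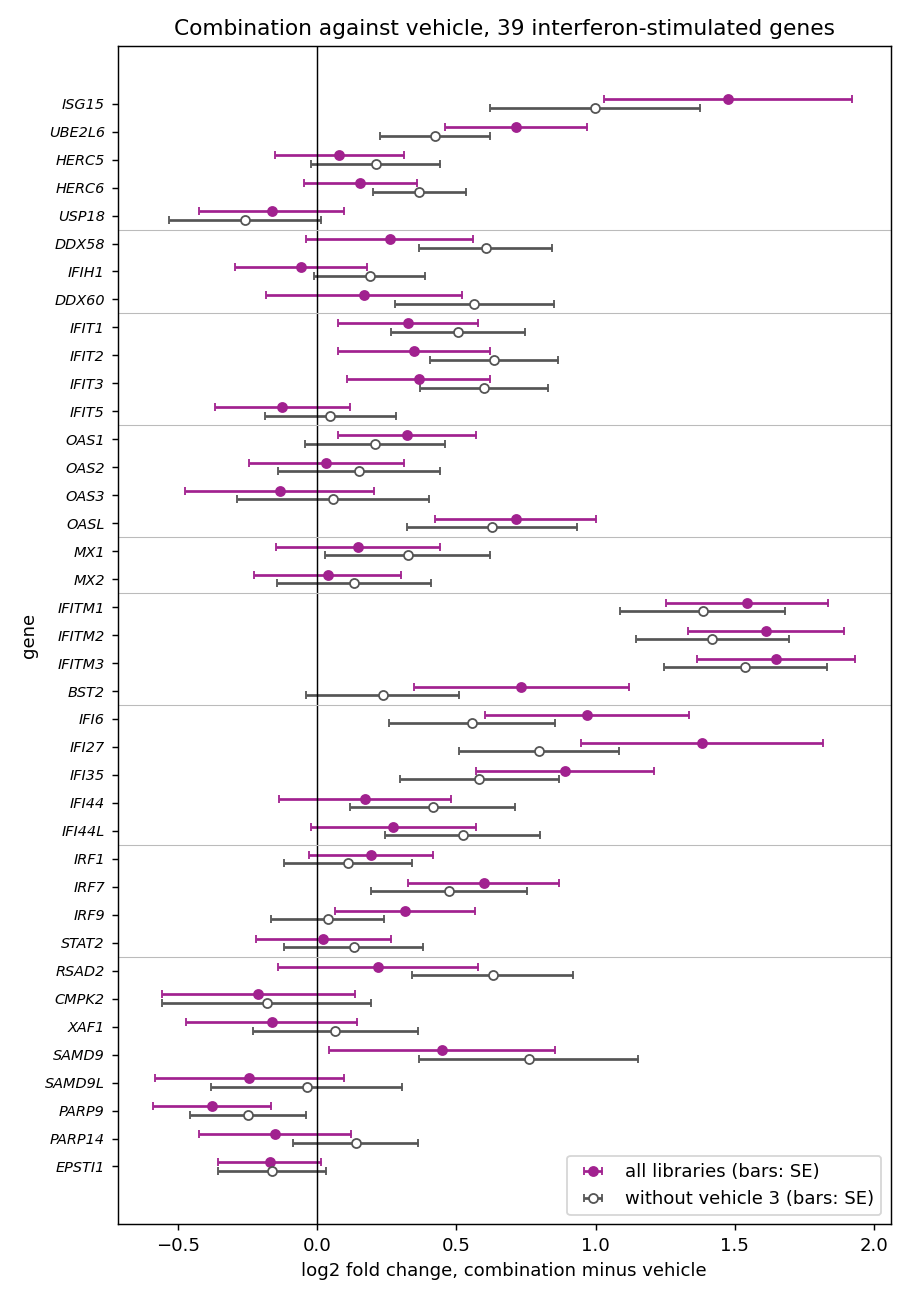
Log2 fold change of each of the 39 genes, combination minus vehicle, from all libraries (filled points) and without vehicle 3 (open points), with bars for the standard error. The 3 IFITM genes lie at 1.54 to 1.65 with all libraries and at 1.38 to 1.54 without vehicle 3. The median of the 39 genes is 0.22 and 0.37.

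The combination was also set against each drug alone. By limma 0 of 39 genes passed against alpelisib and 0 against nintedanib, as did 0% of all tested genes in both, and edgeR, voom and DESeq2 called 0 of the 39 too. At an unadjusted p under 0.05 there were 2 higher genes against alpelisib, IFITM2 and IFITM3, where 1.29% of all tested genes were higher, and 0 lower genes, where 3.17% were. Against nintedanib there were 4 higher, the 3 IFITM genes and SAMD9, where 1.28% were, and 0 lower, where 2.55% were. The difference of IFITM2 from alpelisib was estimated at 0.84 ± 0.28 (95% interval 0.25 to 1.42, limma adjusted p = 0.943) and that of IFITM3 at 0.61 ± 0.28 (0.01 to 1.21). From nintedanib the estimates were 0.75 ± 0.27 for IFITM3 (0.18 to 1.31, adjusted p = 0.988), 0.73 ± 0.27 for IFITM2 and 0.66 ± 0.28 for IFITM1. SAMD9 had 0.81 ± 0.38 against nintedanib. USP18 and CMPK2 pointed down against alpelisib, with -0.50 ± 0.26 (interval -1.05 to 0.05) and -0.65 ± 0.35 (-1.38 to 0.08). The groups overlapped for each of the 39 genes in both comparisons. Over all tested genes, 0.86% lay wholly above and 1.55% wholly below alpelisib, and 0.317% above and 0.908% below nintedanib.

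Whether the drugs added up on the log2 scale was tested as combination plus vehicle minus alpelisib minus nintedanib. By limma 0 of 39 genes passed, as did 0% of all tested genes, and 0 by edgeR, voom or DESeq2. At an unadjusted p under 0.05 there were 0 of the 39, against 2.42% higher and 4.42% lower over all tested genes. The IFITM departures were -0.37 ± 0.40 for IFITM1, -0.05 ± 0.39 for IFITM2 and -0.29 ± 0.39 for IFITM3, with intervals of -1.21 to 0.47, -0.86 to 0.76 and -1.11 to 0.53. Intervals this wide leave room for more and for less than the sum. The smallest p belonged to USP18 (-0.72 ± 0.36, adjusted p = 0.662), CMPK2 (-0.95 ± 0.48), OASL (-0.77 ± 0.40) and SAMD9L (0.87 ± 0.47).

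Responders and non-responders to nintedanib were compared as the titles name them. By limma 0 of 39 genes passed, as did 0% of all tested genes, and 0 by edgeR, voom or DESeq2. At an unadjusted p under 0.05 there was 1 higher gene, RSAD2, and 0 lower, against 1.2% higher and 0.427% lower over all tested genes. RSAD2 stood at 807, 805 and 1103 in responders and 391 and 510.0 in non-responders, a difference of 1.0 ± 0.46 (interval 0.03 to 1.97, adjusted p = 0.999). IFIT1 had 2061, 2123 and 3217 against 1613 and 1871, or 0.47 ± 0.32. For these 2 of the 39 genes all responders lay above all non-responders, which held for 6.85% of all tested genes, and 0 of the 39 lay wholly below, against 7.66%. The estimates were -0.59 ± 0.47 for IFI6 and 0.44 ± 0.44 for OAS3. IFITM3 overlapped, with 15406, 13002 and 6552 in responders and 7248 and 11554 in non-responders.

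The 39 genes did not vary as a single block. Over the 741 pairs of genes the median Pearson r of log2 values was 0.16, with 36.7% of pairs negative, and without vehicle 3 it was 0.26 with 26.3% negative. In vehicle 3, 12 genes had their highest value of all libraries: HERC6, DDX58, IFIH1, DDX60, IFIT2, IFIT5, IFI44L, RSAD2, XAF1, SAMD9L, PARP9 and PARP14. Another 12 had their lowest value there: ISG15, UBE2L6, OAS1, IFITM1, IFITM2, IFITM3, BST2, IFI6, IFI27, IFI35, IRF1 and IRF9. For the second set the median combination change was 0.93 with vehicle 3 and 0.57 without it. For the first set it was 0.05 and 0.28. These sets were chosen by their values in vehicle 3 and are given as a description. How many of all tested genes had an extreme value there was not counted.

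Vehicle 3 is also the extreme library of the ribosomal protein level, so over 17 libraries the sign of a correlation with that level follows in part from how these sets were chosen. Without vehicle 3, Pearson r with the level was 0.07 to 0.82 in the set lowest there, positive for 12 of 12. In the set highest there it was -0.72 to 0.35, positive for 4 and negative for 8. These are descriptions of libraries that share depth and RNA handling. Over all 17 libraries r was 0.93 for IFI27, 0.88 for ISG15 and 0.85 for IFI6, and -0.80 for PARP9. Without vehicle 3 these were 0.82, 0.75, 0.65 and -0.72. DDX60 had -0.31 with vehicle 3 and 0.35 without it, so that its sign rested on that library. Over 17 libraries r was positive for 16 genes and negative for 23, and without vehicle 3 positive for 23 and negative for 16. The part of the ribosomal protein level in the values of these genes was not tested.

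**Figure D4:**
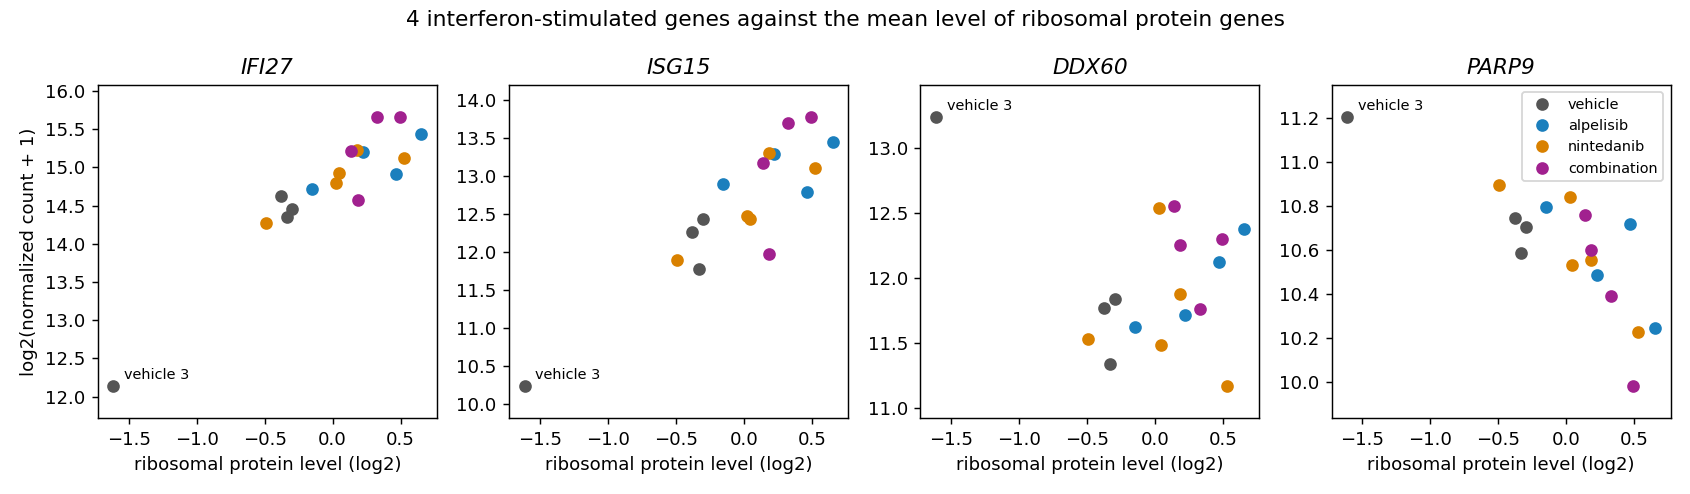
Log2(normalized count + 1) of IFI27, ISG15, DDX60 and PARP9 in each library against the ribosomal protein level, the mean log2 value of 78 genes relative to the mean of the 17 libraries. Vehicle 3, at -1.61 on the horizontal axis, is the lowest library for IFI27 and ISG15 and the highest for DDX60 and PARP9.

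Single tumours differed across the list, and the counts that follow were not made over all tested genes. Vehicle 2 had 1 of 39 genes above the gene's median over the 17 libraries and held the lowest value of 7 genes, among them MX1, OASL and RSAD2. Combination 2 and combination 3 had 30 and 31 of 39 above, and combination 2 held the highest value of 12 genes. Combination 1 had 12 of 39 above, the lowest values of IFI44 and IRF7, and IFITM counts above every vehicle tumour. The median change of the list with the combination was 0.08 without vehicle 2, 0.37 without vehicle 3 and 0.35 without combination 1. With alpelisib it was -0.04 without vehicle 2, 0.25 without vehicle 3, 0.05 without alpelisib 1, 0.19 without alpelisib 2 and 0.28 without alpelisib 3. With nintedanib it was -0.05 without vehicle 2, 0.17 without vehicle 3, 0.03 without responder 3 and 0.15 without non-responder 1.

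Other genes of the interferon system were read from lists of ligands, receptors, transducers, sensors and negative regulators. Further lists held other type I response genes, interferon gamma response genes and MHC class I presentation genes. From all these lists 75 genes were tested, and 0 passed in any of the 7 comparisons by limma, edgeR or voom. DESeq2 called 3 of them with the combination, MB21D1, SOCS3 and ISG20, and 0 elsewhere. That is 3 of 75, where DESeq2 called 3.41% of the genes with an adjusted p. At an unadjusted p under 0.05 in limma, 8 of the 75 were higher and 2 lower with the combination, against 11.2% and 6.89% of all tested genes. With alpelisib 7 were higher and 4 lower, against 11.5% and 7.17%, and with nintedanib 3 and 1, against 5.11% and 2.01%. Interferon genes themselves were scarce in the human reads: of 12 listed, 2 averaged at least 10 normalized counts, IFNE and IL29. IL29, which encodes interferon lambda, averaged 10.4 and had a change of 1.0 ± 0.35 with nintedanib (adjusted p = 0.619). IFNE, an epithelial type I interferon, averaged 138, with a combination change of 0.33 ± 0.46. IFNB1 averaged 3.35, between 0 and 8.04, and IFNG 0.0581.

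All 6 receptor genes were measured. IFNAR1 and IFNAR2, the type I receptor, had combination changes of -0.15 ± 0.20 and -0.32 ± 0.19, and IFNAR1 had -0.55 ± 0.20 with alpelisib (adjusted p = 0.224). For IFNGR2 the alpelisib change was 0.50 ± 0.26. Of the kinases bound to these receptors, TYK2 had 0.06 ± 0.18 and JAK1 -0.16 ± 0.29 with the combination. JAK1 and JAK2 had -0.61 ± 0.29 and -0.48 ± 0.30 with alpelisib. The median of the receptor genes with the combination was -0.08, against -0.03 over all tested genes.

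Of 11 genes of nucleic acid sensing, MB21D1, which encodes the DNA sensor cGAS, came closest to the threshold, on the low side. Its counts were 355, 401, 544 and 569.8 in vehicle and 277, 192, 222 and 200.0 in combination tumours. All combination tumours lay below all vehicle tumours, as in 5.31% of all tested genes, and the change was -1.05 ± 0.23 (limma adjusted p = 0.0634). DHX58, a regulator of RIG-I, had 0.57 ± 0.22 with alpelisib. Of 6 negative regulators, SOCS3, which blocks JAK kinases, had 1.54 ± 0.40 with the combination (adjusted p = 0.0973), with 157, 132, 261 and 391 in vehicle and 403, 1179.6, 653 and 501 in combination tumours, and PIAS1 had -0.60 ± 0.23 with alpelisib.

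Of 20 further type I response genes 19 were tested, with medians of -0.03, -0.05 and -0.03 for alpelisib, nintedanib and the combination. Among them the exonuclease gene ISG20 had 1.20 ± 0.32 with the combination (limma adjusted p = 0.0998) and TDRD7, a tudor domain protein, -0.64 ± 0.18 with alpelisib (0.209). Of 16 interferon gamma response genes 14 were tested, with a combination median of 0.01, and GBP5 and APOL1 had 0.84 ± 0.32 and 0.47 ± 0.23. The 13 genes of MHC class I presentation had medians of 0.43, 0.35 and 0.56, with 12, 11 and 10 positive. Their immunoproteasome members PSMB9 and PSMB10 had combination changes of 0.86 ± 0.34 and 0.78 ± 0.32 (adjusted p = 0.202 and 0.208).

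The genes outside the list whose log2 values followed the mean of the 39 genes most closely were SLC15A3 (Pearson r = 0.87), TRIM29 (0.85), LYNX1 (0.84), NLRX1 (0.84), KRT5 (0.84), PLEKHN1 (0.84), KRT6A (0.82), PKP1 (0.81), PML (0.81) and FGD2 (0.81). These are correlations over 17 libraries that share treatment and depth, given as a description.

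Mouse reads give the host side of the same genes. Of the 39 genes, 33 had a mouse counterpart in the list of symbols, and 33 of 33 averaged at least 10 normalized counts. Whole mouse reads could not be recovered with certainty in combination 2, so shares of mouse reads are given over the other 16 libraries. There the human reads outnumbered the mouse reads for 31 of the 33, the exceptions being Irf7 with 70.6% and Ifitm2 with 50.5% mouse reads. Human reads were also the larger part of each library as a whole. Over all genes but Rn45s and Lars2, mouse reads were 12.3% to 20.5% of the reads of a library. Conserved sequence lets a read match either genome. Mouse counts of these genes may hold tumour reads and human counts may hold host reads, and neither share was tested. By limma 0 of 33 passed with alpelisib, nintedanib or the combination, where 0, 18 and 92 of the 11831 tested mouse genes did. At an unadjusted p under 0.05, 1 was higher and 0 lower with alpelisib, where 6.03% and 4.52% of all tested mouse genes were. With nintedanib 5 were higher and 0 lower, against 4.88% and 3.59%, and with the combination 3 and 3, against 9.67% and 6.87%. Positive changes numbered 19, 23 and 10 of 33. The medians were 0.12, 0.13 and -0.19, against 0.01, 0.02 and -0.02 over the 11831 mouse genes tested. The smallest adjusted p with the combination were those of Ifitm1, with a change of 1.74 ± 0.43 (limma adjusted p = 0.0598), Ifitm2, with 1.25 ± 0.31 (0.0638), and Cmpk2, on the low side with -1.05 ± 0.28 (0.0778). Ifitm3 had 0.95 ± 0.31 (0.129). Ifitm1 stood at 136, 95.2, 98.7 and 192 in vehicle and 373, 396, 271 and 784 in combination tumours. The lowest combination tumour was thus above the highest vehicle tumour. How many of all mouse genes were separated in this way was not counted. The mouse share of the reads of both species was 5.64% for Ifitm1, 50.5% for Ifitm2 and 11.3% for Ifitm3 over these 16 libraries. Pearson r of each with its human counterpart was 0.76, 0.80 and 0.79 over the 17 libraries.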

How the data were processed

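RNA of 17 xenograft tumours was sequenced as polyA libraries. Bowtie, TopHat and DESeq2 and the builds hg19 and mm10 are named per the submitters' processing notes, and the series text says that the human and mouse genomes were mapped separately. Not given in the sources used here: tool versions, the read counter, its annotation and strandedness. The authors deposited 2 tables of normalized counts, a signal per gene equal to read counts divided by a size factor per library. Of the human values, 100% were whole multiples of 1 read within 0.001, and DESeq2 size factors of the recovered reads equalled the deposited scaling within 7.4e-09%. No count test was run on the mouse table.

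Genes with a mean of at least 10 over the 17 libraries were fitted with limma-trend (limma 3.58.1, R 4.3.3) on log2(value + 1), with 1 mean for each of 5 groups from the sample titles, and tested in 7 two-sided contrasts with Benjamini-Hochberg adjustment at 0.05. The nintedanib mean weighted its 5 libraries equally. The script was tested on simulated data. Alternatives were TMM scaling, other pseudocounts and filters, fewer samples, a replicate block, and edgeR 4.0.16, voom and DESeq2 1.42.0 on recovered reads.

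The 39 genes, their role classes and the other lists were chosen with earlier results of these data known. Genes named were those past the threshold, the 4 smallest p per contrast, the most abundant and most variable gene per class, ISG15, the IFITM and the transcription factor genes, up to 2 genes per other list with JAK1, TYK2, IFNAR1 and IFNAR2, and the 10 genes most correlated with the list mean. The remaining genes of the 39 appear with their change only, and their values were known when they were described. One gene that this rule names is not reported here. Symbols were matched to RefSeq (GRCh38.p14), 39 of 39. As the files use hg19, no coordinates are given. Without transcript lengths, levels were not compared between genes.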

Additional observations from a re-analysis of the deposited data

Results flagged for a closer look

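Within-group outliers were sought in the normalized counts of the 39 genes in the vehicle, alpelisib and combination groups, each of 4 libraries, while the responder and non-responder groups were too small. The measure was the gap of the highest or lowest library to its nearest neighbour as a share of the range of its group. It passed Dixon's 95% critical value in 14 of 117 gene and group pairs (12%). For independent, normally distributed values that rule flags about 1 in 20. The genes share libraries and their counts were not log-transformed, so 12% cannot be set against that rate. The rule was not run on all tested genes. Of the 14 pairs, 7 lay in vehicle 3. DDX60 (9625), DDX58 (2648), PARP14 (5099), IFI44L (2090.3) and IFIT5 (937) stood far above the other vehicle tumours. BST2 (969) and IFI6 (2532) stood far below them. Combination 3 was apart from its group for DDX58 (2006), IFIT2 (1721) and IFIT5 (797), all high. STAT2 was high in combination 2 (2916). Among alpelisib tumours IFITM2 was high in alpelisib 1 (1363), PARP14 was low in alpelisib 4 (1466) and EPSTI1 was low in alpelisib 3 (349).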

How the results depend on the processing

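Combination against vehicle kept 3 of 39 genes, the 3 IFITM genes in each case, under TMM scaling, pseudocounts of 0.5 and 5, a minimum mean of 50, 1 nintedanib group, edgeR and voom, and 4 genes, with ISG15, under DESeq2. It kept 0 without an expression filter (adjusted p 0.0502 to 0.0507) and 0 with only the groups compared (0.053 to 0.0855). Over all human genes, where 52 passed, the count was 0 without a filter, 34 at a minimum of 50, 7 with only the groups compared and 496 by DESeq2. DESeq2 also gave 173 genes and 3 of the 39 for alpelisib, 13 genes and 1 of the 39 for nintedanib, and 1 gene for combination against nintedanib, where limma gave 0. With single libraries left out, the combination count ranged from 0 to 97 over all genes and from 0 to 3 among the 39, and the nintedanib count from 0 to 1 over all genes. The cause was not tested. Under these settings 550 summary counts and medians stayed within 1.5 times the value reported or within the spread between libraries, and 32 counts, given here or within these ranges, did not. That spread was 0.22 on the log2 scale, no smaller than the 3 median changes against vehicle. A median that turned its sign could therefore count as unmoved, as those of alpelisib and nintedanib without vehicle 2 did. No called change turned its direction.

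Replicate numbers do not pair the samples: deviations of same-numbered libraries correlated above 0.1 in 7 of 29 cases, against 33 of 85 for different numbers. With the number as a replicate block, 3 of the 39 genes passed with the combination, and 29 genes over all. Libraries within a group were not copies of each other (chi-square per gene at least 18.9 over 22 pairs). Depth limits vehicle 3 most, which had the fewest reads.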
